A study of Mus musculus with 60 samples.

Results

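The distal X genes described here are all genes that the deposited gene lists place on the X chromosome with a midpoint beyond position 149166495 (mm10), without Kdm5c. They number 84 of the 14003 genes listed in 52 libraries, and another 392 listed X genes lie proximal to that position. Of the 84 distal genes, 67 were listed in at least 1 library of embryonic stem cells (ESCs), 15 were listed in all 48 ESC libraries, and 17 were listed only in neurons. The annotation calls 81 of them protein coding and 3 long noncoding RNAs. The members were chosen by this position, and the position and the split of the clones below were selected on allele-specific reads of untreated ESCs, so the ratios and read levels of untreated libraries are given as a description, without a test.

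All cells derive from the F1 2-1 female mouse ESC line, an F1 hybrid with 1 chromosome of each pair from the 129/Sv and the other from the Cast/Ei strain, which lets reads over polymorphisms be given to their allele. Every clone carries the M2rtTA transactivator at the ROSA26 locus and a Cast/Ei Xist transgene under a doxycycline-responsive promoter, every clone is a single clonal line, and treated ESCs received 2 µg/ml doxycycline for 5 days. In Tg-E clones 87 and 68 (40,XX) the transgene sits at the Xist locus of the Cast X. The Tg-X clones 85, 86, 109 and 190 and the clones 339, 267 and 203b of the Tg-X;8 category have the karyotype 40,XX,t(X;8), in which extra chromosome 8 material is joined to the 129 X. By the study's account, this fusion leaves some X-linked genes monosomic and part of the chromosome 8 genes trisomic. The transgene lies on the intact Cast X in Tg-X clones and on the translocation product in Tg-X;8 clones. In Tg-12 clones 228, 273 and 55 (labelled 38 in the deposited ESC data, and 20 and 38 in the neuron data) the line is 41,XX,dup12 and the transgene sits on a chromosome 12. Clone 267 and clone 160 also carry a Tsix-Stop allele on the 129 X. There were 2 untreated and 2 treated ESC libraries of each clone, except 1 treated library of clone 203b and a single, treated, library of clone 68.

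Some libraries need to be named before the results. The deposited labels of clone 160 place its transgene on the X, while the study lists it as Tg-12, and its 4 libraries read the distal X genes from the Cast allele like the t(X;8) clones, so that it enters neither group. The treated library of clone 203b stands apart from the other Tg-X;8 libraries in several distal X genes, and results are given without it where it decides them. Xist reads check the induction. They are given in CPM of allele-specific reads (counts per library scaled to a common total), summed over both alleles, so they can include endogenous Xist. In treated clone 267, 440 of 1055 and 703 of 1785 Xist reads were 129, while the transgene is Cast. Xist lay between 189 and 2313 in every treated ESC library outside clone 160, lowest in clone 228. Where untreated libraries listed Xist, it was at most 56.1 outside clones 267 and 160, where untreated levels reached 197 and 325. ESC libraries held 731374 to 5830149 allele-specific reads and 2284822 to 20637905 reads counted over listed genes, and the files leave a gene out of a library below 8 allele-specific reads, so a missing gene is not a 0.

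Xist RNA spreads in cis along the chromosome that transcribes it and silences most of its genes, while some genes escape and stay active on the silenced X. In a female cell with both X chromosomes intact each X gene has a Cast and a 129 copy, and silencing of the Cast copy lowers the share of Cast reads. Where a gene is read from the Cast X alone, this share cannot move, and only the level of all reads can show silencing. The distal X genes hold members of many cellular functions, among them the cohesin subunit Smc1a, the mitochondrial enzymes Hsd17b10 and Pdha1, the polyamine enzymes Sat1 and Sms, the translation initiation factor Eif1ax and the ubiquitin ligase Huwe1. In these bulk samples, fewer cells that express a gene and less RNA of it per cell cannot be told apart.

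The edge of the region was sharp in the reads. The last listed gene proximal to the position with reads was Lrch2 (midpoint 147488256), a leucine-rich repeat protein gene, with 37 Cast and 78 129 reads over 7 untreated libraries of t(X;8) clones, which is 67.8% 129 reads, beside 75.4% in untreated clones with both alleles. The first distal gene was Apex2 (midpoint 150585274), which encodes an endonuclease of DNA repair, with 22 Cast reads and no 129 read in 2 untreated t(X;8) libraries and 159 Cast and 192 129 reads in the clones with both alleles. Next to it, Pfkfb1, a regulator of glycolysis, had 51 Cast reads and no 129 read in 4 t(X;8) libraries and 54.0% 129 reads in the clones with both alleles. Counts of 0 among 22 and 51 reads are few, and the position of the edge between Lrch2 and Apex2 is not resolved further by these genes. These 3 genes were chosen for their position.

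The median ratio of Cast to all allele-specific reads over the distal X genes was 1.00 in each library of the 7 t(X;8) clones and of clone 160, treated or not. It lay between 0.472 and 0.510 in every ESC library of clones 228, 273 and 55 and at 0.496 and 0.5 in the untreated libraries of clone 87. The treated libraries of clone 87 stood lower, at 0.332 and 0.331, and the treated library of clone 68 was at 0.328. In the same plot, treated Tg-X libraries lay below 0.5 over the proximal X genes while their distal ratio could not move.

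**Figure D1:**
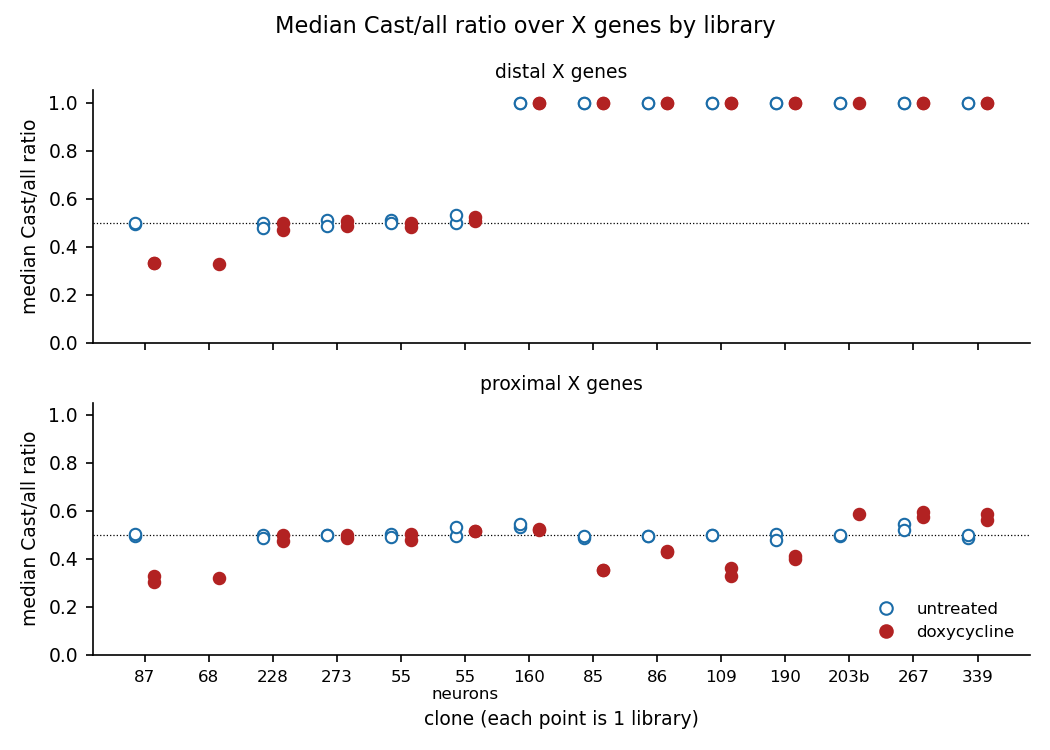
Median Cast/all ratio (y axis, share of allele-specific reads from the Cast allele) over distal X genes (top) and proximal X genes (bottom), 1 point per library, by clone on the x axis, open for untreated and filled for doxycycline; the dotted line marks 0.5. Distal medians sit at 1.00 in t(X;8) clones and clone 160, near 0.5 in clones 228, 273 and 55, and at 0.328 to 0.332 in treated libraries of clones 87 and 68.

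Reads from the 129 allele were rare among the distal X genes of t(X;8) clones, but some genes had them. Over the 27 ESC libraries of these clones, 56 distal genes were listed and 26 of them had no 129 read at all. Without Fancb and G530011O06Rik, the pooled share of 129 reads was 269 of 68394, which is 0.393%. Prdx4, for example, which encodes a peroxiredoxin of the endoplasmic reticulum, had 1 129 read among 1980 (0.0505%, exact 95% binomial interval 0.00128 to 0.281%), while in untreated clones with both alleles 61.8% of its 2031 reads were 129. Smc1a had 2 among 2028 reads. Intervals cover counting error only, since reads are summed over polymorphisms and 1 read can be counted at several of them.

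Fancb, a subunit of the Fanconi anaemia core complex for DNA crosslink repair (X:164980480 to 164997272, + strand), had 38 129 reads of 376 in the t(X;8) clones, which is 10.1% (exact 95% binomial interval 7.25 to 13.6%). These reads came from 3 of the 16 libraries that listed the gene. They were 10 of 39 reads and 12 of 18 reads in the untreated libraries of clone 190 and 16 of 39 reads in 1 untreated library of clone 267, while the other untreated library of clone 267 had none of 13. The other 13 libraries had no 129 read among 10 or more reads each, and all 3 libraries with 129 reads were untreated. In clone 160, 1 untreated library had 13 of 20 and the other 3 had none. The deposited coordinate of Fancb also differed between libraries. It was 164996770 to 164997272 in 34 libraries and 164991545 to 164991688, a coding exon of 144 bases, only in 1 untreated library of clone 160 and 1 of clone 190, which together held 13 Cast and 25 129 reads. That exon is shown because it is the interval listed in the libraries with the highest 129 shares among t(X;8) clones and clone 160, on the + strand of GRCm38.p6 with the exon in capitals and the flanking intron bases in lower case.
Fancb exon, chrX:164991525-164991708: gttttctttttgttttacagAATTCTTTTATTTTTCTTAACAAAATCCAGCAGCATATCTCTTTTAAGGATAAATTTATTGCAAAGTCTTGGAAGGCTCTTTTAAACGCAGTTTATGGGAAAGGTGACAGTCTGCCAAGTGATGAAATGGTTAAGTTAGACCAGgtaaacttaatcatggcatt

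In the clones with both alleles, Fancb was read from both at 43.9 to 72.4% 129 reads in the 8 untreated libraries. Its level in CPM (HTSeq counts scaled to effective library size) was 26.3 at lowest, 47.6 in the median and 63.5 at highest in those libraries, and 16.4, 20.2 and 28.2 in the 12 untreated t(X;8) libraries that listed it. Both sets overlapped only between 26.3 and 28.2 CPM. Whether the 129 reads of Fancb belong to the translocated chromosome was not tested.

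G530011O06Rik, a long noncoding RNA gene at the end of the X (X:169975043 to 169978917, - strand), was read from both alleles in every library. In the 27 t(X;8) libraries 2174 of 7685 reads were 129, which is 28.3%, and all 27 libraries had them. Untreated t(X;8) libraries lay between 26.6 and 41.5% with a median of 34.6% (n = 14), and untreated libraries of clones with both alleles between 22.1 and 41.1% with a median of 26.6% (n = 8). The ranges overlapped almost wholly, so the share of 129 reads of this gene did not separate the karyotypes. In all 48 ESC libraries its allele-specific reads outnumbered the reads counted on the gene by HTSeq, which holds for no library of Fancb.

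The sequence around G530011O06Rik is not unique. RefSeq also annotates the gene on the Y, and the 300 bases around its start (250 before and 50 after) on X and Y share 293 of 296 aligned bases, 99.0%. They are shown, in GRCm38.p6 with the dinucleotide CG in capitals, because reads of such near-identical sequence can align to both copies of a reference. The authors kept unique alignments only, so the counts of this gene are uncertain. The lines are female, so the Y copy itself is no source of reads. The effect of the copy on the counts was not tested.
G530011O06Rik, chrX:169978868-169979167, - strand: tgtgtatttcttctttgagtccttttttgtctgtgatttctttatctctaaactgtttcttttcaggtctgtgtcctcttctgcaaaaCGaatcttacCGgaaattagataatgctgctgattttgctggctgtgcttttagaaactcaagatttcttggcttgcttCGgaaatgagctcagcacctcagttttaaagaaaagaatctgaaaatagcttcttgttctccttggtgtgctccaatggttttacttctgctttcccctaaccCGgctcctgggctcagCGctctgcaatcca
G530011O06Rik, chrY:90755001-90755300, - strand: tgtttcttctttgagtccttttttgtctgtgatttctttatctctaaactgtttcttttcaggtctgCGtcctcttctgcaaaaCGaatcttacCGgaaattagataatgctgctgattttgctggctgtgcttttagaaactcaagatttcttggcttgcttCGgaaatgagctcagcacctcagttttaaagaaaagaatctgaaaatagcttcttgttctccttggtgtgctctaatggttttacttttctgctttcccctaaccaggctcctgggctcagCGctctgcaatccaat

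The gene also lies on the opposite strand of Mid1, whose span it overlaps by 3875 bases. Mid1 encodes a microtubule-associated ubiquitin ligase of the TRIM family and lies across the pseudoautosomal boundary of laboratory mice. The deposited coordinate of Mid1, 169976922 to 169977029, is a coding exon of 108 bases that lies within the intron of G530011O06Rik.
Mid1 exon, chrX:169976902-169977049, + strand: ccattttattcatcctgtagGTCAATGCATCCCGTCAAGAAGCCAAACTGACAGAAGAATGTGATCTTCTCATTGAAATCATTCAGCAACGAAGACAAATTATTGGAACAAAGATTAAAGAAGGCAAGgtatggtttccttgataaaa

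Mid1, which was singled out after its values were seen, was read almost only from the Cast allele in ESCs of every karyotype. It had 1 129 read of 806 in t(X;8) clones and none of 250 in the 6 untreated libraries of clones with both alleles that listed it, a count of 0 that allows a share of up to 1.20% (3 reads of the total). Among the ESCs, 129 reads were found in 1 treated library of clone 87 (4 of 91), the library of clone 68 (4 of 174) and 1 treated library of clone 109 (1 of 147). In the 4 neuron libraries of clone 55, by contrast, its Cast ratio was 0.694 to 0.751. In 6 of the 35 ESC libraries that listed Mid1, its allele-specific reads outnumbered its HTSeq reads, so its counts are uncertain too.

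**Figure D2:**
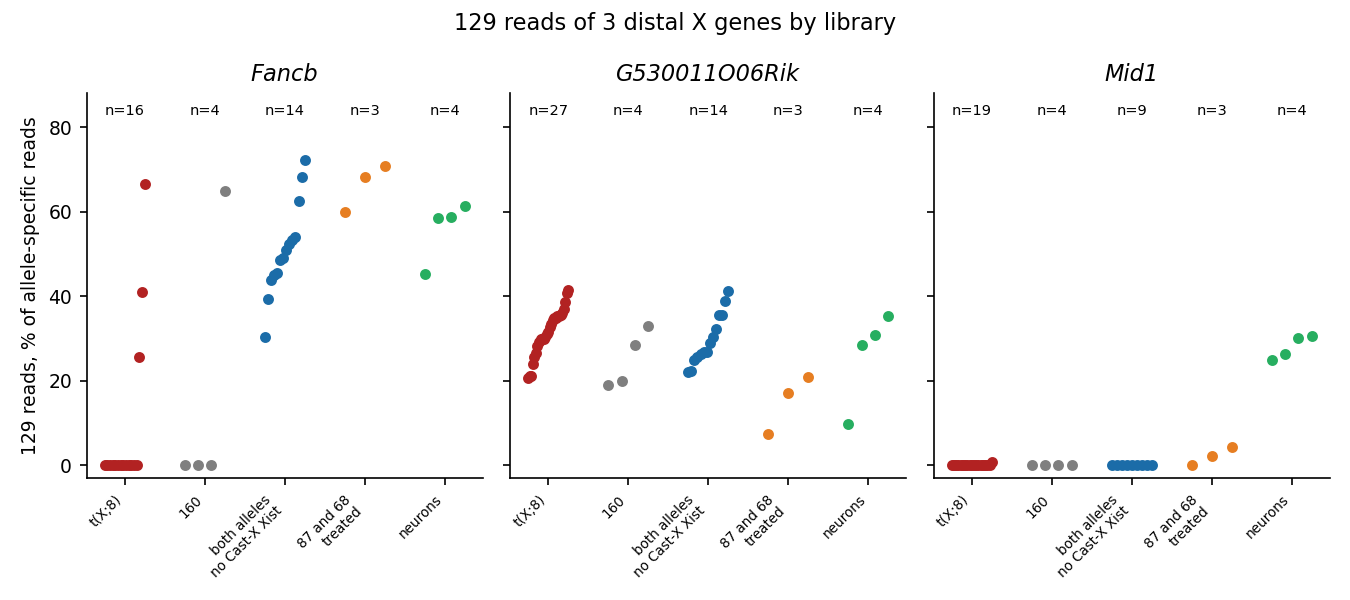
Share of 129 reads (y axis, percent of allele-specific reads) of Fancb, G530011O06Rik and Mid1, 1 point per library that lists the gene, sorted within groups on the x axis (t(X;8) clones, clone 160, clones 228, 273 and 55 with untreated clone 87, treated clones 87 and 68, and neurons). Fancb has 3 t(X;8) libraries above 0, G530011O06Rik has 129 reads in every library, and Mid1 has none in the untreated clones with both alleles.

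Apart from Fancb and G530011O06Rik, 5 distal genes, named here after their values were seen, had at least 1% 129 reads in the t(X;8) clones. Car5b, a mitochondrial carbonic anhydrase, had 32 of 40 reads, but it was also mostly 129 in untreated clones with both alleles (27 of 34). Phex, an endopeptidase of phosphate homeostasis, had 32 of 36 reads in 1 library, the treated library of clone 203b. Gnl3l, a nucleolar GTPase of ribosome biogenesis, had 124 of 7782 (1.59%), with at least 1 read in all 27 libraries. Txlng had 7 of 636 and Tceanc 1 of 15. With a minimum of 50 reads, 2 of these 5 remained, Gnl3l and Txlng.

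The level of all reads, which HTSeq counted without regard to the allele, was next compared between untreated clones. Read counts were summed per clone and scaled to effective library sizes, and 25 distal genes were listed in all these libraries. In the 7 t(X;8) clones all 25 were lower than in the 4 clones with both alleles (87, 228, 273 and 55), with a median log2 difference of -0.98, a fold of 0.508. The values ranged from -1.33 for Prdx4 to -0.44 for G530011O06Rik. The median over 140 proximal X genes was 0.02 and over 4863 autosomal genes -0.01. The clone medians of the distal genes, on the log2 scale relative to the mean of the 4 clones with both alleles, averaged -0.99 ± 0.057 (SD, n = 7 clones) in t(X;8) clones and -0.02 ± 0.11 (SD, n = 4 clones) in clones with both alleles. Each t(X;8) clone lay between -1.08 and -0.91, and each clone with both alleles between -0.18 and 0.05, without overlap. Clone 160 was at -1.24, below all others.

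**Figure D3:**
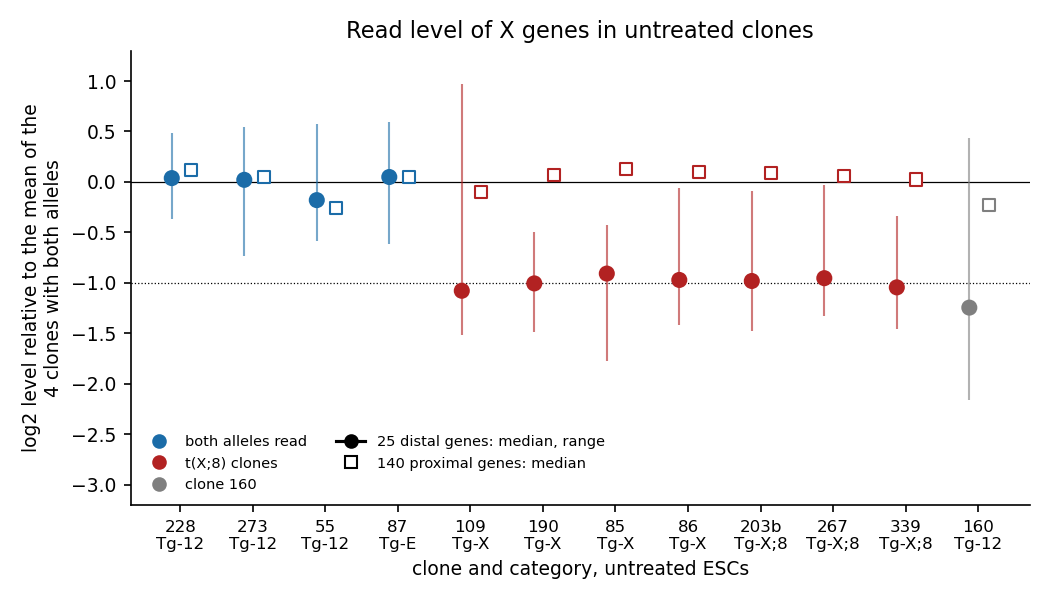
Median (circles) and range (lines) of 25 distal X genes and median of 140 proximal X genes (squares) in each untreated clone, as log2 read level relative to the mean of the 4 clones with both alleles; the x axis gives clone and category. The 7 t(X;8) clones have distal medians of -1.08 to -0.91 and clone 160 has -1.24, while proximal medians of all clones lie between -0.26 and 0.13.

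Of the 25 distal genes, 16 had every untreated t(X;8) library below every untreated library of the clones with both alleles. This held for 0.378% of all 5029 genes, 0 of 140 proximal X genes and 3 of 4863 autosomal genes. The rule chose these genes by their reads in the same libraries, so the counts describe them only. Hsd17b10, a mitochondrial dehydrogenase that is also a subunit of mitochondrial RNase P, had 59.7 CPM at lowest, 66.9 in the median and 82.1 at highest in 14 untreated t(X;8) libraries. In 8 untreated libraries of clones with both alleles it had 110, 165 and 198 CPM, a group that did not overlap with the first. Smc1a, a core subunit of cohesin, had 243, 277 and 320 CPM against 377, 523 and 574, also without overlap. Pdha1, the E1 alpha subunit of pyruvate dehydrogenase, had 267 to 328 CPM against 521 to 911.

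The spread was wider for other genes. Huwe1, a HECT ubiquitin ligase, had 346 to 859 CPM in untreated t(X;8) libraries and 610 to 2168 in clones with both alleles, and the groups overlapped. Its 2 untreated libraries of clone 55 had 2168 and 610 CPM, the highest and the lowest of the 8. Prdx4 also differed among clones with both alleles, from 99.9 to 302 CPM, with clones 228 and 273 high and clones 55 and 87 low, while untreated t(X;8) libraries lay at 54.9 to 101. Its ranges met between the lowest library of clone 55 and the highest of clone 85.

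In treated cells, clones of both karyotypes without a transgene on the Cast X were compared by an edgeR quasi-likelihood test with the clone as the unit (clones 203b, 267 and 339 against 228, 273 and 55). Of 31 distal genes tested, 29 had a lower level in the Tg-X;8 clones, and the median log2 difference was -0.92, against -0.10 over 149 proximal X genes. None passed the adjusted threshold of 0.05, and 0% of all 5874 genes did. By edgeR 24 distal genes had an unadjusted p under 0.05, and DESeq2 called 21 lower (1.94% of all genes). Without clone 55, edgeR called 13. The counts of 24 and 13 are given without the share over all genes, so they do not set the distal genes apart. The largest differences were those of Prdx4 (log2 -1.89, SE 0.42) and Acot9 (log2 -1.71, SE 0.29), a mitochondrial acyl-CoA thioesterase. Klf8, a Krüppel-like transcription factor, and G530011O06Rik had positive values of 0.31 and 0.88 with SE of 0.34 and 0.92. The difference in karyotype and the site of the transgene cannot be told apart here. The genes and the split of these clones were selected on their untreated libraries. In the treated Tg-X;8 libraries the distal genes were likewise read almost only from the Cast allele. A lower level thus followed from the selection, and this test is no independent support for it.

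Whether Xist on the Cast X silenced the distal genes in Tg-X clones was then asked from total reads, since their ratio stays at 1.00. Doxycycline lowered 13 of the 16 distal genes tested and raised 1, by an edgeR quasi-likelihood test over 16 libraries with the clone as a term and an adjusted p under 0.05. Across all 5770 genes, 19.9% were called lower and 20.9% higher, and over the proximal X genes 73 of 139 were lower. The median log2 change was -0.87 over the distal genes (a fold of 0.548), -0.27 over the proximal X genes and 0.02 over 5614 autosomal genes. Proximal X genes of these clones were also read from the other X, which carries no transgene. Their total reads can therefore fall less, and these values do not compare the strength of silencing between distal and proximal genes. The 13 distal genes span most of the roles in the region. Both tested genes of chromatin and transcription were lower (Smc1a and the splicing factor Zrsr2), as were all 3 tested genes of metabolism (Hsd17b10, Pdha1 and the spermine synthase Sms), both of translation and ribosome biogenesis (Eif1ax and Gnl3l) and both of signalling and trafficking (Map3k15, a stress-activated kinase, and Rab9, a GTPase of late endosomes). Of 2 tested genes of the ubiquitin system, Ubqln2, a shuttle of ubiquitylated proteins to the proteasome, was lower and Huwe1 was not called. Acot9, Sat1 and Prdx4 were also lower. The list of roles puts them among the others, although Acot9 and Sat1 are enzymes of metabolism too.

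Prdx4 had 54.9 CPM at lowest, 77.0 in the median and 101 at highest in the 8 untreated Tg-X libraries, and 9.77, 23.1 and 29.6 in the 8 treated ones. All treated libraries were below all untreated ones, and its log2 change of -1.85 (SE 0.11, edgeR adjusted p = 2.37e-09) was the lowest of the 16 genes. The change was seen in each clone, and on the log2 scale clone 190 had -2.19, clone 85 had -1.86, clone 109 had -1.71 and clone 86 had -1.58. Prdx4 is shown with its promoter, since it carries the largest change: the 300 bases around its start hold 20 CG dinucleotides, in capitals, beside a median of 20.5 over the 10 called genes with a promoter in the RefSeq table, 16 over 311 proximal X genes and 22 over 10367 listed genes. In GRCm38.p6 it reads as follows.
Prdx4, chrX:155338411-155338710, - strand: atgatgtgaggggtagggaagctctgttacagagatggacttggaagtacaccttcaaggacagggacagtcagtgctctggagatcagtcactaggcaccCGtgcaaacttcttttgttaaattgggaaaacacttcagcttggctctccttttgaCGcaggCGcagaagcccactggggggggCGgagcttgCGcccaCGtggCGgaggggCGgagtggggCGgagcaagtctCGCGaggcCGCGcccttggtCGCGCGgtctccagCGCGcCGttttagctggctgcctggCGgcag

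Hsd17b10 fell from 59.7 to 82.1 CPM (median 66.8) in untreated libraries to 17.5 to 36.4 (median 24.1) in treated ones, a log2 change of -1.46 (SE 0.14, edgeR adjusted p = 5.21e-07). Eif1ax, the initiation factor eIF1A, fell from a median of 216 CPM (194 to 284) to 98.3 (71.9 to 127), a log2 change of -1.19 (SE 0.099, edgeR adjusted p = 1.71e-07). Sat1, which acetylates spermidine and spermine, fell from a median of 87.9 (65.9 to 112) to 43.9 (28.2 to 61.0) CPM. The groups did not overlap for any of these genes. The remaining called genes fell by between 0.69 (Rab9) and 1.27 (Acot9) on the log2 scale. In all, 13 of 16 distal genes had every treated library below every untreated one, beside 2.96% of all genes tested and 19 of 139 proximal X genes.

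Huwe1 and A830080D01Rik were not called. Huwe1 had 346 to 688 CPM untreated (median 629) and 325 to 653 treated (median 489), with overlap, and a log2 change of -0.28 with a 95% interval of -0.55 to -0.01 before adjustment (edgeR adjusted p = 0.115). A830080D01Rik had a log2 change of -0.15 (interval -0.33 to 0.03, edgeR adjusted p = 0.187). G530011O06Rik was higher, by 1.32 on the log2 scale (SE 0.21, edgeR adjusted p = 1.36e-04). Its untreated libraries had 5.19 to 41.1 CPM (median 13.3) and its treated libraries 20.6 to 62.1 (median 41.5). The groups overlapped because clone 109 was already high untreated, at 41.1 and 38.8, but each Tg-X clone had higher treated than untreated libraries. Reads of this gene are uncertain, as given above, and the study's approximate integration site of the transgene in clone 190 begins within the spans of both Mid1 and G530011O06Rik. Without clone 190, G530011O06Rik changed by 1.02 on the log2 scale (edgeR adjusted p = 0.00166).

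The 16 genes tested are those listed in all 16 libraries, and genes that fell below the reading limit could not enter. Of 28 distal genes listed in all 8 untreated Tg-X libraries, 12 were missing in at least 1 treated library (42.9%), against 13.7% of proximal X genes and 6.07% of autosomal genes. They were 2210013O21Rik, Ap1s2, Ctps2, Fgd1, Hccs, Maged2, Ofd1, Prps2, Siah1b, Syap1, Tsr2 and Txlng. Proximal X genes also had reads of the X without the transgene, which can keep them listed. Median depth was not lower in the treated libraries, at 1774592 allele-specific reads against 1478441. The shallowest treated library was lower, however, with 1120671 reads against 1268746 in the shallowest untreated one. Of the 12 genes, 4 were missing in at least 4 of the 8 treated libraries. Maged2, of the MAGE family, had 31.2 to 39.2 CPM in 8 untreated libraries and was listed in 3 treated libraries, at 10.05, 11.002 and 16.8. With limma on log2 values and missing libraries allowed, 24 of 29 distal genes were called lower, where 18.2% of all 7767 genes were.

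The distal median change differed among the Tg-X clones. On the log2 scale of total reads it was -1.20 in clone 190 (18 genes), whose transgene lies in the distal X, -0.96 in clone 85 (22 genes, near the telomere), -0.82 in clone 109 (24 genes, near Xist) and -0.62 in clone 86 (24 genes, in the body of the X). The proximal medians, which include reads of the X without the transgene, were -0.32, -0.37, -0.22 and -0.19. These are medians over different genes and with 2 libraries per condition, and the difference between clones was not tested.

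In Tg-X;8 clones, where the transgene sits on the translocation product and the distal genes are read from the other chromosome, the distal genes changed little. Of 29 tested over 11 libraries, none was lower by edgeR at an adjusted p under 0.05, and G530011O06Rik was higher. Across all 6118 genes, 2.80% were called lower and 3.64% higher, and 39 of 156 proximal X genes were lower. At an unadjusted p under 0.05 there were 7 of the 29, in either direction, a count given without the share over all genes. DESeq2 called 1 lower (3.99% of all genes) and limma 1 (2.38%). The median log2 change was -0.07 over distal and -0.17 over proximal X genes. No distal gene had every treated library below every untreated one, beside 0.932% of all genes tested. Leaving out clone 339 gave 4 lower genes by edgeR, also given without the share over all genes. The distal median of clone 203b was -0.09, that of clone 267 was -0.03 and that of clone 339 was -0.01.

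Prdx4 came nearest to a call, with a log2 change of -0.46 (SE 0.13, edgeR adjusted p = 0.0511). It had 61.5 to 99.8 CPM in 6 untreated libraries (median 69.6) and 34.7, 61.3, 65.5, 56.5 and 62.6 in the 5 treated ones. The lowest of these was the library of clone 203b, and its groups overlapped. G530011O06Rik rose by 1.25 on the log2 scale (SE 0.26, edgeR adjusted p = 0.0132), but without the treated library of clone 203b by 0.62 (edgeR adjusted p = 0.0203), and without clone 267 the adjusted p was 0.0552. It had 7.51 to 20.8 CPM untreated (median 12.4), and 101 in treated clone 203b, 15.2 and 16.7 in treated clone 267 and 13.3 and 14.5 in treated clone 339.

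The same library of clone 203b was high in the overlapping gene Mid1, with 403 CPM against 6.98 to 9.69 in the 4 untreated Tg-X;8 libraries that listed it and 7.85 to 12.3 in the other treated ones. Mid1 was also high in 3 of the 4 ESC libraries of clone 55, at 82.8 CPM in 1 untreated library and 281 and 94.8 in the treated ones, with 18.02 in the other untreated library, and G530011O06Rik had 41.4, 66.9, 40.97 and 21.9 CPM in the same order. In every other ESC library that listed it, Mid1 had at most 30.8 CPM, a value of 1 treated library of clone 190. Reads of 2 overlapping genes on opposite strands cannot be told apart without strand, and the part of this in the values of G530011O06Rik was not tested.

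The change was lower in Tg-X than in Tg-X;8 clones for 13 of 16 distal genes, by an edgeR interaction test over 27 libraries with an adjusted p under 0.05, where 0.415% of all 5546 genes, 2 of 135 proximal X genes and 8 of 5394 autosomal genes were called lower. The median log2 difference was -0.83 over the distal genes, and -0.12 over the proximal X genes. In both categories the proximal X genes were also read from an X without the transgene. The clearest differences were those of Prdx4 (log2 -1.38, SE 0.17, edgeR adjusted p = 5.82e-05) and Hsd17b10 (log2 -1.25, SE 0.21, edgeR adjusted p = 0.00339). Huwe1 differed by -0.29 (95% interval -0.76 to 0.18, edgeR adjusted p = 0.608), A830080D01Rik by -0.35 (edgeR adjusted p = 0.288) and G530011O06Rik by 0.07 (interval -0.65 to 0.80). The count changed when clones or libraries were left out. Without the treated library of clone 203b the count was again 13, without clone 267 or clone 339 it was 3, and without clone 85 it was 8. Without 1 untreated or 1 treated library of clone 339 it was also 8. The karyotype is shared by both categories, and categories differ in clones as well as in the chromosome with the transgene.

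**Figure D4:**
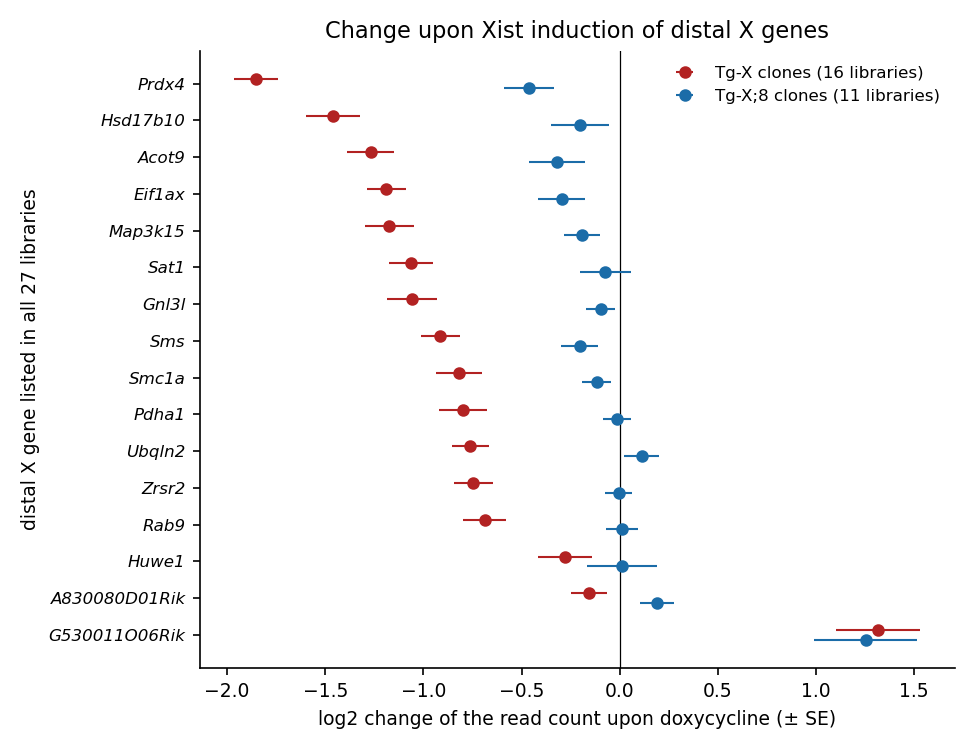
Log2 change of the read count upon doxycycline (x axis, points, with SE bars) of the 16 distal X genes listed in all 27 t(X;8) libraries, in Tg-X clones (red) and Tg-X;8 clones (blue). In Tg-X clones 13 genes lie between -1.85 and -0.69, whereas in Tg-X;8 clones the same 13 lie between -0.46 and 0.11 and G530011O06Rik rises in both.

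Clone 87, with both alleles and the transgene at the Xist locus of the Cast X, allows silencing to be read from the ratio itself. Of 45 distal genes listed in all 4 libraries, 12 had a lower Cast share upon doxycycline and 1 a higher one, by an edgeR quasi-likelihood test of the allele by doxycycline term with an adjusted p under 0.05. Over all 7318 genes 0.970% were lower and 0.0820% higher, and 58 of 183 proximal X genes were lower. The log2 change of the Cast to 129 ratio was below 0 in 44 of 45 distal genes, with a median of -0.97, and in 169 of 183 proximal X genes, with a median of -1.01. In these 4 libraries, 34 distal genes had an unadjusted p under 0.05, a count given without the share over all genes. The count rests on few libraries: it was 2 without either untreated library or without treated library 1, and DESeq2 called 2, Gnl3l and Pdha1 (0.328% of all genes).

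By role, 2 of 11 tested genes of metabolism (Hsd17b10 and Pdha1), 2 of 4 of translation and ribosome biogenesis (Eif1ax and Gnl3l), 2 of 11 of signalling and trafficking (the actin-binding Shroom2 and the clathrin adaptor subunit Ap1s2), 1 of 4 of chromatin and transcription (Zrsr2), the MAGE family gene Maged2, and 4 of 8 others (Mageh1, Klf8, Sat1 and Prdx4) were lower. None of 2 of DNA repair and none of 4 of the ubiquitin system was called by edgeR. The list of roles puts the MAGE family gene Mageh1 and the polyamine enzyme Sat1 among the others, and these counts follow that list. Gnl3l had a Cast share of 0.566 and 0.613 in the untreated libraries and 0.281 and 0.366 in the treated ones, with 290 to 1283 reads each. Its log2 change of the Cast to 129 ratio was -1.60 (SE 0.18, edgeR adjusted p = 2.14e-04). Pdha1 went from 0.377 and 0.387 to 0.220 and 0.240, with a log2 change of -1.05 (SE 0.13, edgeR adjusted p = 3.68e-04). Both genes had treated values well below the untreated ones, and Pdha1 was read less from Cast already without Xist.

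The largest called change was that of Mageh1, a MAGE family gene, from 0.584 and 0.508 to 0.069 and 0.232, on 56 to 89 reads (log2 -2.80, SE 0.53, edgeR adjusted p = 0.0146). Klf8 went from 0.6 and 0.641 to 0.205 and 0.318 (log2 -2.19, SE 0.38, edgeR adjusted p = 0.00793). Prdx4 went from 0.301 and 0.349 to 0.121 and 0.138 (log2 -1.64, SE 0.33, edgeR adjusted p = 0.0252). Other genes moved less. Huwe1 went from 0.486 and 0.515 to 0.396 and 0.408 (log2 -0.56, SE 0.14, edgeR adjusted p = 0.0773), and Smc1a from 0.491 and 0.503 to 0.371 and 0.331 (log2 -0.86, SE 0.24, edgeR adjusted p = 0.169). Neither passed the threshold, although treated values lay below untreated ones.

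Some genes stood outside this pattern. G530011O06Rik had a higher Cast share with doxycycline, from 0.737 and 0.743 to 0.926 and 0.829 (log2 1.49, SE 0.32, edgeR adjusted p = 0.0349), but the call was lost without treated library 1 (adjusted p = 0.602) and without either untreated library (adjusted p = 0.353 and 0.249). Fancb was at 0.490 and 0.276 untreated and at 0.400 and 0.317 treated, with overlap. Trappc2, a subunit of a vesicle tethering complex, was at 0.561 and 0.462 and at 0.400 and 0.586, also with overlap. Mospd2 likewise overlapped, at 0.589 and 0.537 and at 0.655 and 0.350. Trappc2 and Mospd2 were named after their values were seen, and each had 20 to 151 reads per library.

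**Figure D5:**
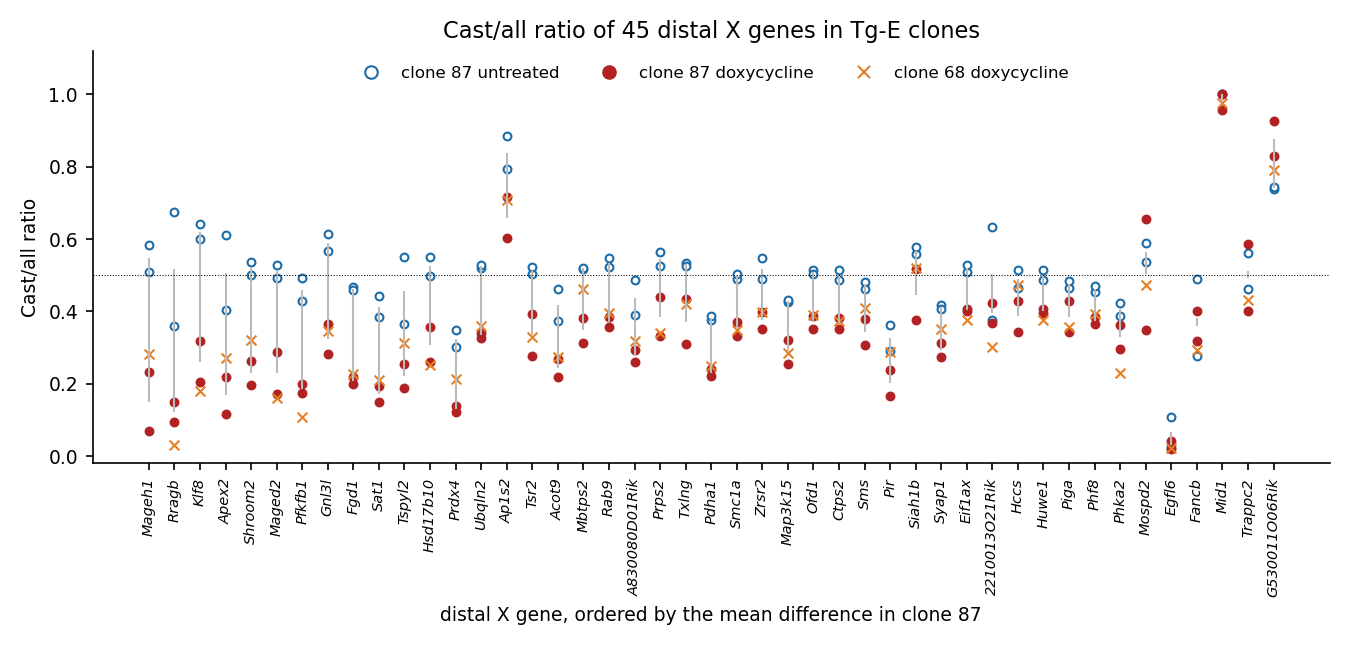
Cast/all ratio (y axis) of the 45 distal X genes listed in all 4 libraries of clone 87, ordered on the x axis by the mean difference in clone 87, with open circles for untreated and filled circles for treated libraries of clone 87, crosses for the treated library of clone 68 and grey lines joining the means of clone 87. Most treated values lie below the untreated ones, and G530011O06Rik at the right lies above them.

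The mean untreated minus treated ratio of clone 87 had a median of 0.152 over the 45 distal genes and exceeded 0.1 for 35 of them (77.8%), against a median of 0.159 and 71.6% above 0.1 over 183 proximal X genes and 6.42% above 0.1 over 7089 autosomal genes. Clone 68 has no untreated library, so its treated library was set beside the untreated libraries of clone 87, with no test. The median difference was 0.140 over 48 distal and 0.167 over 211 proximal X genes, and 35 of the 48 (72.9%) exceeded 0.1, beside 70.6% of the proximal X genes and 6.10% of 7514 autosomal genes. Rragb, a Rag GTPase of the mTORC1 pathway, had the largest difference, with a ratio of 0.0313 on 64 reads in clone 68. Klf8 followed with 0.180, and Maged2 had 0.161. Hccs, a mitochondrial holocytochrome c synthase, was at 0.472 in clone 68 against a mean of 0.490 untreated. Rragb and Hccs were named after their values were seen. G530011O06Rik again lay higher, at 0.791 against 0.740.

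Total reads of the distal genes in clone 87 had a median log2 change of -0.41 over the 45 genes, and 43 lay below 0. No gene was called by edgeR, with 0.0273% of all 7318 genes called lower. An unadjusted p under 0.05 was found for 16, a count given without the share over all genes. DESeq2 called 1 (0.383% of all genes) and limma none (0.0121%). The lowest value was that of Ctps2, a CTP synthase named after its values were seen, at -0.95 (SE 0.18, edgeR adjusted p = 0.176). The median log2 change of Cast reads was -0.86 and of 129 reads 0.05 in this clone. In the Tg-X clones, where most distal genes had few or no 129 reads, the median change of Cast reads was -1.17 for clone 190 and -1.06 for clone 85, and clones 109 and 86 had -0.93 and -0.77.

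With the transgene on chromosome 12 the distal genes served as a control of the treatment. In clones 228, 273 and 55, no distal gene of 34 was called lower in total reads by edgeR (0.0194% of all 5167 genes), with 4 at an unadjusted p under 0.05. None was called by DESeq2 (0.910% of all genes) or limma (0.0252%). Without clone 55, 2 were called by edgeR. The Cast share was not called lower for any of the 34 either (0% of all 5167 genes), and 1 had an unadjusted p under 0.05. The counts of 4, 2 and 1 are given without the share over all genes. The median log2 changes were -0.03 in total reads and -0.05 in the Cast to 129 ratio. A p above the threshold does not show that the values were equal, and the changes ranged from -0.31 to 0.22 in total reads.

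In the 4 neuron libraries of clone 55, grown with and without doxycycline under each of 2 labels, the median ratio over distal genes was 0.5 and 0.507 for the label 20 and 0.533 and 0.523 for the label 38, untreated and treated. The 17 genes listed only in neurons include Gpm6b, a proteolipid of neurons and glia, whose level reached 209 CPM in 1 untreated library and 8.84 to 15.7 in the other 3. Huwe1 was read from both alleles, at 0.486 to 0.522. Prdx4 was at 0.401 to 0.457, with 85.2 to 92.5 CPM. With 1 library of each kind these values have no replicate check.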

How the data were processed

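Allele-specific RNA-seq of 48 ESC and 4 neuron libraries was used, while the 8 libraries with the clone label 292 stayed out of every group, since what the labels say of their cell type differs from the study's account. The authors aligned single reads with TopHat2 2.0.6 to Cast/Ei and 129/Sv versions of mm10, kept the best unique alignment and counted alleles at exonic polymorphisms with SAMtools, and the deposited counts are the Cast and 129 reads per gene, their sum, and all reads per gene from HTSeq 0.6.1, without normalization. The deposited fraction is Cast over all allele-specific reads, checked to equal the ratio of the counts. The authors listed a gene in a library only above a minimum of reads, and the lowest number in the files is 8.

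Groups follow the deposited labels and the study's list of clones. All 84 distal genes matched RefSeq symbols (GRCm38.p6). Levels are CPM, HTSeq counts scaled to effective library sizes (TMM over 4759 genes listed in all ESC libraries). Changes were tested with the quasi-likelihood test of edgeR 4.0.16 in R 4.3.3, on HTSeq counts with the clone as a term, or on Cast and 129 counts with a term for each library and the allele by doxycycline interaction, over all genes listed in every library of a comparison, with Benjamini-Hochberg adjustment over all of them and a threshold of 0.05. DESeq2 1.42.0 and limma 3.58.1 were alternatives, beside other scalings, filters, a replicate block and leaving out each library and clone. The scripts were tested on simulated data. P-values measure the spread between libraries of clonal lines, except in the treated comparison of karyotypes. There the clone is the unit, and they measure the spread between clones. Counts at an unadjusted p, and counts with a library or clone left out, are given without the share over all genes. They describe the distal genes only and do not set them apart from other genes. Named are the genes the rule names, those called in the Tg-X, difference or clone 87 tests, and the 25 with the highest mean count in untreated ESCs, and others are said to be named after their values were seen. Members, lists and tests were chosen with earlier results of these data known. Of the distal genes, 13 pairs overlap in the annotation, such as Map3k15 and Pdha1 by 1128 bases, and no source used here states a stranded count, so their reads are uncertain where genes overlap. Python 3.11.15 with pandas 2.3.3, numpy 2.4.6, scipy 1.17.1 and matplotlib 3.10.9 was used elsewhere.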

Additional observations from a re-analysis of the deposited data

Results flagged for a closer look

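Among 162 groups of 4 to 10 libraries, 9 had a highest or lowest library far from the rest (5.56%), where chance alone gives about 1 in 20. In treated Tg-X;8 clones, all 3 such values came from the library of clone 203b: Acot9 was lowest there at 39.3 CPM, Maged2 was lowest at 26.8 and G530011O06Rik was highest at 100.7. In clone 55, which is a Tg-12 clone, untreated library 2 was lowest in Gnl3l at 167 CPM and highest in Tsr2 at 213, treated library 1 was highest in Huwe1 at 2164 and treated library 2 was highest in Tsr2 at 181. In Tg-X clones, Eif1ax was highest in untreated library 2 of clone 109 at 284 CPM, and A830080D01Rik was highest in treated library 1 of clone 86 at 80.6.

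The log2 change upon doxycycline of Tg-X clones differed from that of Tg-X;8 clones by edgeR's interaction test in 13 distal genes, with a difference of -1.38 for Prdx4, -1.25 for Hsd17b10, -0.99 for Sat1, -0.98 for Map3k15, -0.96 for Gnl3l, -0.95 for Acot9, -0.89 for Eif1ax, -0.88 for Ubqln2, -0.78 for Pdha1, -0.74 for Zrsr2, -0.71 for Sms, -0.70 for Smc1a and -0.70 for Rab9. Without clone 267 or clone 339 the count was 3.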

How the results depend on the processing

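Calls in Tg-X clones were the most stable: each of the 14 named genes kept its direction and its side of the threshold under all alternatives tried (364 of 364), and leaving out a library or clone gave 13 to 16 lower genes, while limma with missing values allowed called 24 of 29. For the difference between categories, the count of 13 became 8 with a replicate block, 8 without clone 85 and 3 to 15 over all leave-outs (3 without clone 267, 3 without clone 339, 8 without an untreated or a treated library of clone 339), and named genes were called in 455 of 520 cases. For Tg-X;8 clones, DESeq2, scaling by autosomes other than 8 and 12, and limma called 1 lower gene each, and leave-outs 0 to 4 (4 without clone 339, 2 without either of 2 of its libraries). For the allelic change of clone 87, the 12 calls became 6 with a replicate block, 2 with DESeq2, 32 with adjustment within the X, and 2 to 11 over leave-outs, and named genes were called in 56 of 115 cases. Total reads of clone 87 gave 1 call with DESeq2 and 0 to 1 over leave-outs. In Tg-12 clones leave-outs gave 0 to 2, with 2 without clone 55. In treated clones of both karyotypes, DESeq2 called 21 and leave-outs 0 to 13, with 13 without clone 55. The untreated median log2 difference of -0.98 was -0.85 with clone 160 counted among the clones with both alleles and -1.04 to -0.96 over leave-outs. With at least 50 reads, 2 of 5 further genes kept 1% 129 reads or more. No value reversed its direction. The cause of these shifts was not tested. Same-numbered libraries did not deviate together throughout (correlations from -0.55 in clone 160 to 0.65 in clone 55), so the number was not taken as a pairing, and the block changed no other count of calls by over 1.5 times.

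Genes near the minimum of 8 reads enter and leave the lists with depth, allelic shares of genes with few reads are imprecise, and clones 203b, 68 and 87 rest on few libraries, which limits statements on single genes there.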

Other observations

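The 8 libraries labelled clone 292, which the labels put in no usable group, had a median Cast ratio of 1.00 over the distal X genes in each library, and 0.496 to 0.609 over the proximal X genes. They listed 38 to 72 distal genes, and pooled shares of 129 reads were 1.07 to 3.09%.

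In clone 160, in neither group of the report, distal genes showed no overall change with doxycycline, with a median log2 change of total reads of 0.00 over 36 genes. Its pooled 129 share without Fancb and G530011O06Rik was 35 of 10981 reads (0.319%). Prdx4 had 39.3 and 37.9 CPM untreated and 44.96 and 37.3 treated in this clone, below the untreated libraries of every other clone.

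Of the genes listed in neurons, Phex was read only from the 129 allele in both untreated libraries (Cast ratio of 0), at 2.04 and 2.53 CPM, and Mid1 had 26.7 to 75.3 CPM. Promoters of distal genes listed only in neurons held a median of 11.5 CG dinucleotides in 300 bases (n = 14), beside 19 for distal genes listed in ESCs (n = 59), given as a description with no test.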
